A study of Mus musculus with 8 samples.

Results

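The genes of the respiratory chain and ATP synthase were examined in periventricular brain tissue of Lrig1 knockout mice (KO) and of wild-type mice (WT). Members were the protein-coding genes whose symbols start with mt-Nd, mt-Co, mt-Atp, mt-Cytb, Ndufa, Ndufb, Ndufc, Ndufs, Ndufv, Uqcr, Cox4 to Cox8 or Atp5, without assembly factors and pseudogenes, and with at least 10 estimated counts in at least 4 mice. Of the 116 symbols that matched these letters, 91 were kept, out of 54307 genes in the table, and 13 of them lie on mitochondrial DNA and 78 in the nucleus. The other 25 were 9 with a pseudogene symbol (-ps), 8 assembly factors, 4 others annotated as processed pseudogenes and 4 below the count minimum. Complex I had 7 mitochondrial and 38 nuclear members, complex III 1 and 8, complex IV 3 and 15, and ATP synthase, or complex V, 2 and 17. Symbols were those of an annotation older than the study's, so that Usmg5 and Atpif1, which also code for ATP synthase proteins, and Ndufb1-ps fell outside the rule by name.

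The study asked what the loss of LRIG1, a transmembrane inhibitor of growth factor signalling, does to neural stem cells of the adult ventricular-subventricular zone (V-SVZ). Bulk RNA-seq was done on polyA-selected RNA from 1 hemisphere of each of 8 mice at 8 weeks of age. KO mice, 2 female and 2 male, were homozygous for CreERT2 knocked into exon 1 of Lrig1. This is a constitutive knockout, present in every cell from conception, and it also leaves the Cre fusion in KO tissue alone. WT mice, 3 female and 1 male, were littermates with both Lrig1 alleles intact, and all 8 mice were on the 129-Elite background. The males were WT mouse 2 and KO mice 1 and 3.

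The respiratory chain moves electrons from NADH to oxygen and pumps protons across the inner mitochondrial membrane as it does so. Complex I takes electrons from NADH, complex III passes them to cytochrome c, complex IV hands them to oxygen, and complex V lets the protons flow back and makes ATP. The chain is built from 2 genomes: the core membrane subunits come from mitochondrial DNA, which is transcribed as long RNAs that are then cut up, while most subunits are imported as proteins made from nuclear mRNA. Neurons depend heavily on this pathway, whereas quiescent neural stem cells rely more on glycolysis and fatty acid oxidation.

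Some mitochondrial genes overlap, so a read can belong to both, which bears on how their counts were divided. On mitochondrial DNA of GRCm38, mt-Atp8 covers chrM:7766-7969 on the plus strand and shares its last 43 bases, shown in capitals, with the start of mt-Atp6. In the same way mt-Nd4l shares its last 7 bases with mt-Nd4, and the last 60 bases of mt-Nd4l, at chrM:10114-10173, are shown.
mt-Atp8: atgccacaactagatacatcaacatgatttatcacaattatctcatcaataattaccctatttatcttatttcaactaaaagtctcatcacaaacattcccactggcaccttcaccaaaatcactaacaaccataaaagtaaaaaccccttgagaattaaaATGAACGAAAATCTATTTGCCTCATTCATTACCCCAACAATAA
mt-Nd4l: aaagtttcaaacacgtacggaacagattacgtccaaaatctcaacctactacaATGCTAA

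The nuclear members do not share a transcript, and their promoters were searched for the letters of 3 factors known for driving genes of mitochondrial proteins. These were TGCGCA, the core of the NRF1 site, CCGGAAG, the ETS site bound by GABPA, and ATGGCGG, a YY1 site, on both strands of the 250 bases before and 50 after each RefSeq start (GRCm38.p6). A promoter was found for 62 of the 78 nuclear members, with 67 start sites. TGCGCA was in 23.9% of these promoters and in 7.76% of all 32851 promoters, CCGGAAG in 20.9% and 8.86%, and ATGGCGG in 16.4% and 4.05%. Member promoters were also richer in G and C, with a median of 57.3% against 52.7%, and their median number of CG pairs was 19 against 7. No match of one motif overlapped a match of another, and 32 members had at least 1 match. One promoter per complex is shown, 100 bases ending before the first annotated exon, 5′ to 3′ on the gene's strand, with the match in capitals. They are Ndufb6 at chr4:40279422-40279521 on the minus strand, Uqcr11 at chr10:80406831-80406930 on the minus strand, Cox5b at chr1:36691349-36691448 on the plus strand and Atp5e at chr2:174464106-174464205 on the minus strand.
Ndufb6: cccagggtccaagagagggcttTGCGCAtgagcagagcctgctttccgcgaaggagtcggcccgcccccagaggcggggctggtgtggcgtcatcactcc
Uqcr11: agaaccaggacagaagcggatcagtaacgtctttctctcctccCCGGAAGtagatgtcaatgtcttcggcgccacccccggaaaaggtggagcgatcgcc
Cox5b: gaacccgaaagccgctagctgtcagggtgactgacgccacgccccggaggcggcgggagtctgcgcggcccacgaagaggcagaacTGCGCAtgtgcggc
Atp5e: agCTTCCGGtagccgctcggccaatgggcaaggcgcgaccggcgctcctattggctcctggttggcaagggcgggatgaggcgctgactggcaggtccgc

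The libraries held between 47887437 and 74482334 estimated counts. Lrig1 had 33.7 ± 14.2 CPM (counts scaled to a common library size with TMM factors; SD, n = 4) in WT and 2.42 ± 1.40 in KO mice, and the groups did not overlap. Across 17669 genes tested with edgeR's quasi-likelihood test, 1 gene had an adjusted p under 0.1, which is 0.00566% of the genes, and it was not a respiratory chain gene. It was not Lrig1 either, which had a log2 fold change of -3.80 (unadjusted p = 4.86e-05 and adjusted p = 0.286, edgeR). This edgeR test thus did not call the gene that was knocked out, so a gene without a call may still differ. The paper, which used DESeq2, reported Lrig1 as the gene lowered with the strongest significance in KO mice. Marker genes of neurons, astrocytes, oligodendrocytes, ependymal cells and microglia were present in all libraries. Markers of neighbouring brain regions differed between mice of the same genotype. The summed TPM (level per transcript length, scaled to a common total) of 5 cortical excitatory neuron markers ran from 27.1 to 920 in WT and from 5.79 to 406 in KO mice, and that of 7 striatal neuron markers from 2298 to 5836 and from 3408 to 5247.

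The 13 mitochondrial genes took a similar share of all counts in both genotypes, and the WT mice lay on both sides of the KO mice. The share was 7.94, 5.70, 9.94 and 6.78% in WT mice 1 to 4 and 8.33, 7.97, 7.42 and 7.16% in KO mice 1 to 4. The means were 7.59% ± 1.81 in WT and 7.72% ± 0.532 in KO mice (SD, n = 4), and all 4 KO mice lay inside the range of the WT mice. WT mouse 3 had 1.74 times the share of WT mouse 2, so the spread within WT was far larger than the difference of 0.130 percentage points between the means. Among females alone the order of the means turned, with 8.22% in WT and 7.56% in KO mice. WT mouse 2, with the lowest share, was the only male in WT, so within WT its low share and its sex cannot be told apart. In KO mice the males had 8.33 and 7.42% and the females 7.97 and 7.16%. Whether sex bears on the share was not tested. In bulk tissue, fewer cells of a type and less RNA per cell cannot be told apart.

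The 78 nuclear genes together took a much smaller share of all counts, which varied far less between mice. This share was 0.902, 0.857, 0.917 and 0.867% in WT mice 1 to 4 and 0.968, 0.929, 0.854 and 0.969% in KO mice 1 to 4. KO mice 1, 2 and 4 were above every WT mouse, while KO mouse 3 was the lowest of all 8, so the groups overlapped. The means were 0.886% ± 0.0286 in WT and 0.930% ± 0.0540 in KO mice, and the highest mouse had 1.13 times the share of the lowest. Counting error was small beside these differences: the 95% Wilson interval of a share reached at most 0.00838 percentage points to each side for mitochondrial and 0.00267 for nuclear genes, and covers counting error only. Mitochondrial counts were 6.65 to 10.8 times nuclear counts in WT mice and 7.39 to 8.69 times in KO mice.

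**Figure D1:**
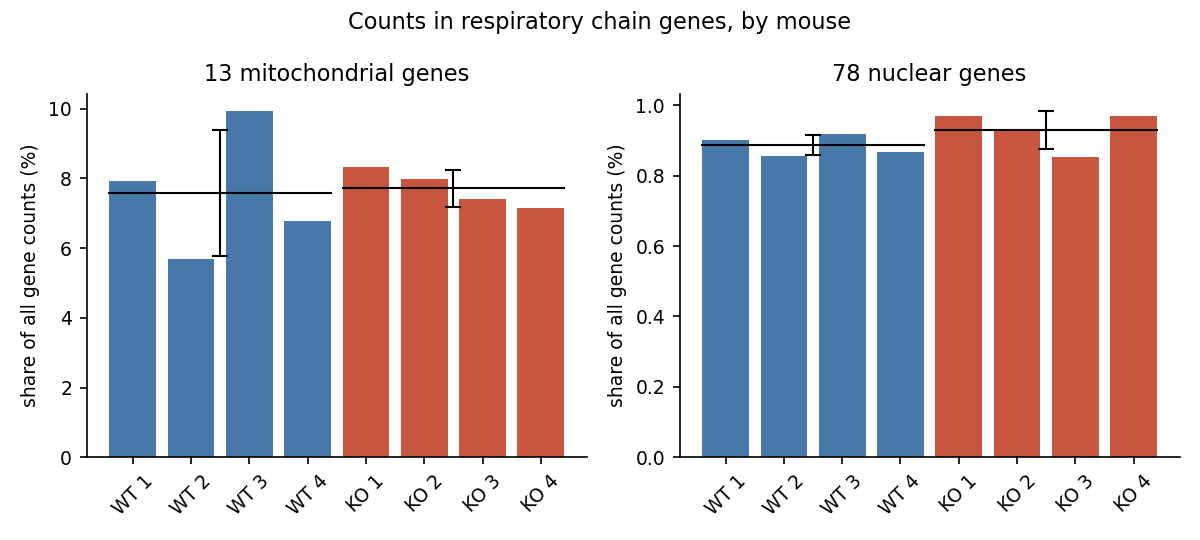
Percent of all gene counts in the 13 mitochondrial (left) and 78 nuclear (right) respiratory chain genes in each mouse. Bars are single mice (blue WT, red KO), horizontal lines the genotype means and error bars the SD over 4 mice. The mitochondrial share runs from 5.70% in WT mouse 2 to 9.94% in WT mouse 3, with the 4 KO mice between them, and the nuclear share stays between 0.854 and 0.969%.

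Per length, mitochondrial mRNA weighed more. It made up 22.3 to 35.8% of all TPM in WT mice and 27.2 to 32.6% in KO mice, and the nuclear members made up 2.04 to 2.41% and 2.17 to 2.46%. A large part of the mitochondrial TPM was mt-Atp8, at a mean of 130516 TPM, though it held only 3.62 to 5.70% of mitochondrial counts. Its effective length was set to 30.5 to 36.0 bases, so both of these TPM shares lean on that length. Since shares of TPM must add up, a mouse with more mitochondrial RNA leaves less room for nuclear RNA. With the 13 mitochondrial genes left out of the total, the nuclear share was 3.14, 3.11, 3.18 and 3.29% in WT mice 1 to 4 and 3.22, 3.24, 3.35 and 3.38% in KO mice 1 to 4. On this scale the nuclear share of the highest mouse was 1.09 times that of the lowest, and the groups still overlapped.

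The 13 mitochondrial genes moved together from mouse to mouse. WT mouse 3 was the highest of the 8 mice for 12 of them and WT mouse 2 the lowest for 11, and the median deviation from each gene's mean log2 CPM was 0.48 in WT mouse 3 and -0.44 in WT mouse 2. In the 4 KO mice these medians lay between -0.10 and 0.17. Nuclear members had a different order: KO mouse 1 was highest for 36 of 78, WT mouse 4 lowest for 37 and KO mouse 3 lowest for 24, with medians from -0.12 in KO mouse 3 to 0.13 in KO mouse 1. The median SD within a genotype was 0.32 on the log2 scale for mitochondrial members and 0.14 for nuclear members, beside 0.21 for all genes tested. WT mouse 2, with the least mitochondrial RNA, had the highest summed TPM of the cortical markers, 920, and the lowest of the striatal markers, 2298, while WT mouse 3, with the most, had 27.1 and 5836. The other mice did not all follow this order. KO mouse 4, with a mitochondrial share of 7.16%, had the lowest cortical sum, 5.79, and a striatal sum of 5247. WT mouse 4, at 6.78%, had 114 and 5072, and KO mouse 2, at 7.97%, had 17.1 and 3408. KO mouse 1, at 8.33%, had 189 and 4917, WT mouse 1, at 7.94%, had 151 and 5436, and KO mouse 3, at 7.42%, had 406 and 3710. The part of neighbouring tissue in the mitochondrial share was not tested. Choroid plexus markers, of which 3 of 5 reached 1 TPM, summed to 47.3 TPM in WT mouse 3 and to 12.8 to 31.4 TPM in the other mice.

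**Figure D2:**
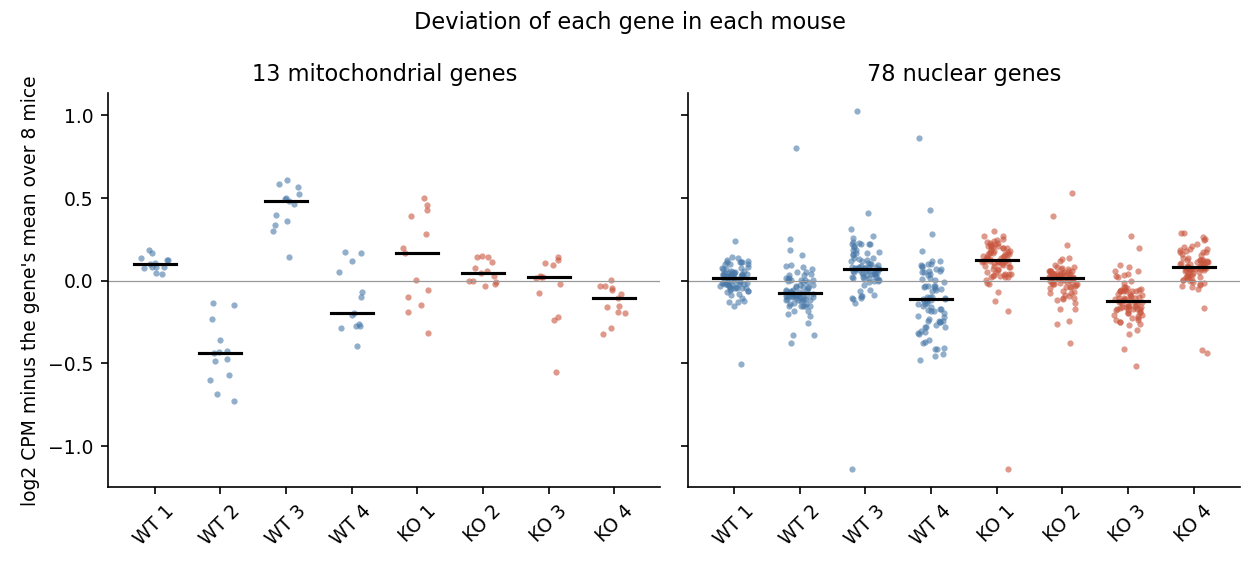
Each point is 1 gene in 1 mouse, as log2 CPM minus that gene's mean over the 8 mice, for the 13 mitochondrial (left) and 78 nuclear (right) genes. Black lines are the medians per mouse, blue is WT and red is KO. The mitochondrial genes sit high as a block in WT mouse 3 (median 0.48) and low in WT mouse 2 (median -0.44), while nuclear medians stay between -0.12 and 0.13.

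No respiratory chain gene was called different between KO and WT mice after adjustment over all genes, in a test that did not call Lrig1. None of the 91 members had an adjusted p under 0.1 in edgeR's quasi-likelihood test, where 0.00566% of all genes did, and the adjusted p of every member was 1.0. At an unadjusted p under 0.05 there were 2 members, Cox4i2 and Ndufb6, beside 1.88% of all genes, and DESeq2 likewise gave no member an adjusted p under 0.1. The groups did not overlap for 2 members, Cox4i2 and Cox6b2, beside 1.53% of all genes tested. The median log2 fold change of KO over WT was -0.02 for the mitochondrial members, with a median standard error of 0.22, and 0.06 for the nuclear members, with a median standard error of 0.10, against -0.0009 for all genes.

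By sign, 59 of the 78 nuclear members were higher in KO mice and 19 lower, which is 75.6% higher beside 49.7% of all genes, and with library sizes in place of TMM 67 of 78 were higher while the median of all genes stood at 0.03. These counts leaned on single mice that shift many nuclear members at once. Without KO mouse 1, 47 of 78 were higher and the median fell to 0.01, without KO mouse 4 it was 51 with a median of 0.02, without WT mouse 4 it was 49 with a median of 0.02, and without KO mouse 3 it was 68 with a median of 0.10. Members rose and fell together across mice, so their number is not a number of independent observations. Of the mitochondrial members 4 were higher and 9 lower, but with library sizes in place of TMM 8 were higher, with sex in the model 9, without WT mouse 3 11, and without WT mouse 2 or among females alone none. WT mouse 2 was the only WT male, so leaving it out and keeping females alone both remove WT males and are not separate checks.

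**Figure D3:**
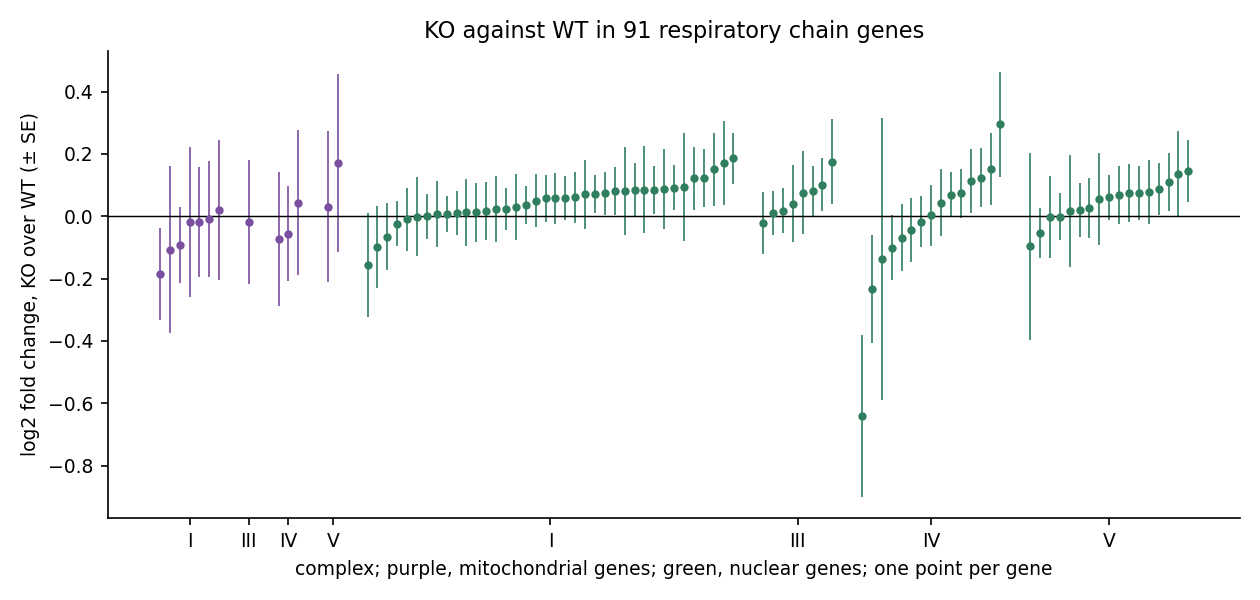
Log2 fold change of KO over WT with its standard error from edgeR for each of the 91 genes, ordered by size within each complex, for mitochondrial (purple) and nuclear (green) genes. All but 1 of the points lie between -0.23 and 0.29, and the exception is the nuclear complex IV gene Cox4i2 at -0.64. With library sizes in place of TMM the signs of mt-Nd1, mt-Nd4, mt-Cytb and mt-Nd4l turn, and only mt-Nd5 and mt-Nd6 among the mitochondrial points keep theirs in all 19 alternatives.

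The mitochondrial complex I genes code for the membrane arm that couples electron transfer to proton pumping. Their log2 fold changes ran from -0.19 to 0.02. mt-Nd5, a subunit of the far end of this arm, had the lowest unadjusted p of the 13 mitochondrial genes. It had 3374, 2720, 4028 and 3583 CPM in WT mice 1 to 4 and 3069, 3185, 3247 and 2551 CPM in KO mice 1 to 4. The log2 fold change was -0.19 with a standard error of 0.15 (unadjusted p = 0.24 and adjusted p = 1.0, edgeR), and it kept its sign in all 19 alternatives. WT mouse 2 lay below 3 of the 4 KO mice, so the groups overlapped. mt-Nd6 is the only protein gene on the light strand, its mRNA carries little poly(A), and it overlaps mt-Nd5 on the opposite strand. It had 34.9, 30.1, 36.4 and 35.8 CPM in WT mice and 26.5, 36.6, 36.5 and 28.9 CPM in KO mice, and how the library kept strand is not given in the sources used here. Unlike the other mitochondrial genes it was not highest in WT mouse 3: its highest mouse was KO mouse 2 and its lowest KO mouse 1. The other 5 genes, mt-Nd1, mt-Nd2, mt-Nd3, mt-Nd4 and mt-Nd4l, had log2 fold changes from -0.11 to 0.02 with standard errors of 0.18 to 0.27.

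For complex III, mt-Cytb codes for cytochrome b, the only subunit of this complex from mitochondrial DNA. It had 7714, 4942, 9466 and 5958 CPM in WT mice and 6907, 7002, 6942 and 6890 CPM in KO mice, a log2 fold change of -0.02 with a standard error of 0.20. The KO mice were nearly alike, with an SD of 49.5 CPM against 1990 CPM in WT mice, and whether the spread differed between genotypes was not tested.

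The complex IV genes mt-Co1, mt-Co2 and mt-Co3 code for the catalytic core of cytochrome c oxidase. mt-Co1, whose protein holds the site where oxygen is reduced, had the most counts of all members: 15088, 13239, 18013 and 13646 CPM in WT mice and 13243, 14612, 15769 and 14082 CPM in KO mice. It was also the steadiest mitochondrial gene, with a highest mouse 1.36 times the lowest. Its log2 fold change was -0.06 with a standard error of 0.15, that of mt-Co2 -0.07 with 0.22 and that of mt-Co3 0.04 with 0.23.

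The ATP synthase genes mt-Atp8 and mt-Atp6 code for membrane subunits of the proton channel, from the overlapping frames printed above. mt-Atp8 varied the most between mice, with 3566, 2087, 5267 and 2631 CPM in WT and 4888, 3827, 3512 and 3023 CPM in KO mice, and a highest mouse 2.52 times the lowest. Its log2 fold change was 0.17 with a standard error of 0.28, and that of mt-Atp6 was 0.03 with 0.24. All KO mice lay inside the range of the WT mice for both genes.

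Within the mitochondrial sum, the parts of single genes also varied between mice. mt-Co1 made up 15.4 to 23.0% of the 13 genes' counts, mt-Co3 14.3 to 18.6%, mt-Atp6 12.9 to 17.9%, mt-Cytb 8.06 to 9.84% and mt-Co2 8.52 to 9.80%. The parts of mt-Nd3, from 0.479 to 0.877%, and of mt-Nd6, from 0.0310 to 0.0540%, varied in proportion about as widely as the sum or more so. mt-Co1 held its largest part, 23.0%, in WT mouse 2, the mouse with the least mitochondrial RNA, and its smallest, 15.4%, in KO mouse 1. KO mouse 1 in turn had the largest parts of mt-Atp6, 17.9%, mt-Co3, 18.6%, and mt-Atp8, 5.70%. The part of mt-Nd5 was 4.55% ± 0.669 in WT and 3.95% ± 0.408 in KO mice (SD, n = 4), with overlapping groups. The ribosomal RNAs of the mitochondrion are cut from the same long transcript, and polyA selection keeps only some of them. mt-Rnr1 had 3374 ± 374 CPM in WT and 3379 ± 659 CPM in KO mice, and mt-Rnr2 5372 ± 474 and 5345 ± 1030 CPM.

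Nuclear complex I members include the subunits that bind NADH, the iron-sulphur cluster proteins and many small accessory proteins. Of 38, 31 were higher in KO mice and 7 lower, with a median log2 fold change of 0.06 and a range from -0.16 to 0.19. Ndufb6, an accessory subunit of the membrane arm (ENSMUSG00000071014.11), had the second lowest p of all members. It had 37.5, 38.1, 36.2 and 32.4 CPM in WT mice and 41.5, 40.3, 37.4 and 44.7 CPM in KO mice. KO mice 1, 2 and 4 were above all WT mice, and KO mouse 3 lay among them. The log2 fold change was 0.19 with a standard error of 0.08 (unadjusted p = 0.0484 and adjusted p = 1.0, edgeR), and it ran from 0.14 without WT mouse 4 to 0.23 without KO mouse 3. Its exons overlap Smim27 on the other strand, which had a mean of 66.6 counts against 2232.6 for Ndufb6. Core subunits stayed close between genotypes: Ndufs1, the largest subunit, with 152 ± 8.41 CPM in WT and 160 ± 0.446 CPM in KO mice, and Ndufv1, which binds NADH, with 155 ± 8.82 and 161 ± 11.9 CPM.

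Complex III had 8 nuclear members, 7 higher and 1 lower in KO mice, with a median log2 fold change of 0.06. Uqcrh, the hinge protein that holds cytochrome c1, had the largest, 0.18 with a standard error of 0.14. It had 124, 107, 132 and 84.9 CPM in WT mice and 137, 130, 111 and 129 CPM in KO mice, so that WT mouse 4 stood below the rest and the groups overlapped. Uqcrfs1, the Rieske iron-sulphur protein, had 106 ± 10.9 and 112 ± 2.91 CPM. Uqcrc1 and Uqcrc2, the core proteins, had log2 fold changes of 0.01 and 0.10 with standard errors of 0.07 and 0.08.

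Complex IV held both members whose groups did not overlap, and both are weakly expressed versions of subunits that also have a common version. Cox4i2 (ENSMUSG00000009876.14), an isoform of subunit IV known from lung and from cells that sense low oxygen, was lower in all KO mice than in any WT mouse, beside 0.877% of all genes tested. It had 1.89, 1.60, 3.26 and 1.47 CPM in WT mice and 1.41, 1.34, 1.33 and 1.20 CPM in KO mice, and WT mouse 3 stood above the others. The log2 fold change was -0.64 with a standard error of 0.26 (unadjusted p = 0.0359 and adjusted p = 1.0, edgeR), and without WT mouse 3 it was -0.33. The nearest mice of the 2 groups, WT mouse 4 and KO mouse 1, each had 72.0 counts. Cox6b2 (ENSMUSG00000051811.15), the testis isoform of subunit VIb, was higher in all KO mice than in any WT mouse, beside 0.657% of all genes tested. It had 0.864, 0.884, 0.874 and 0.795 CPM in WT and 0.957, 1.24, 1.01 and 0.993 CPM in KO mice, from 39.0 to 76.0 counts a mouse. In TPM its groups overlapped, with 5.01, 6.31, 3.71 and 5.51 in WT and 4.48, 6.69, 6.42 and 5.25 in KO mice. The log2 fold change was 0.29 with a standard error of 0.17 (unadjusted p = 0.114 and adjusted p = 1.0, edgeR). Over all 15 nuclear complex IV members the median was 0.00, with 8 higher and 7 lower.

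**Figure D4:**
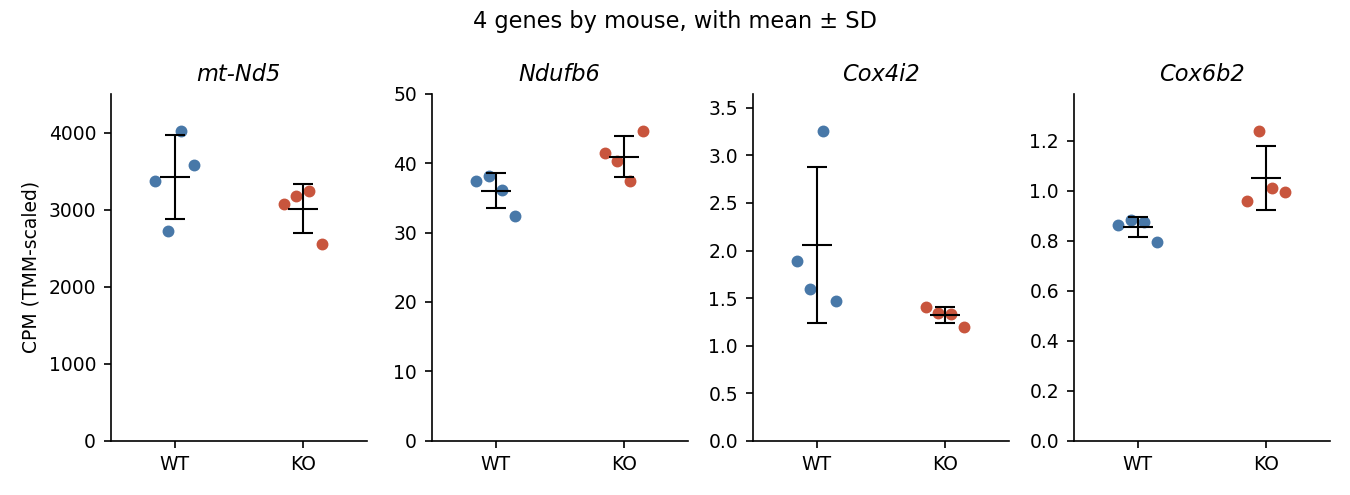
CPM in each mouse for the mitochondrial complex I gene mt-Nd5 and the nuclear genes Ndufb6, Cox4i2 and Cox6b2. Points are mice (blue WT, red KO), and black bars are the mean with the SD over 4 mice. KO and WT points overlap for mt-Nd5 and Ndufb6 and are apart for Cox4i2, where WT mouse 3 is at 3.26 CPM, and for Cox6b2.

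The common isoforms made up nearly all of each set in every mouse. Cox4i1 was 99.3 to 99.7% of the summed TPM of Cox4i1 and Cox4i2, Cox6a1 98.9 to 99.3% against the muscle isoform Cox6a2, Cox6b1 98.9 to 99.3% against Cox6b2, Cox7b at least 99.1% against Cox7b2, and Cox8a at least 99.7% against Cox8b and Cox8c. Cox4i2 held 0.457% ± 0.149 of its set in WT and 0.314% ± 0.0355 in KO mice, and Cox6b2 0.895% ± 0.164 and 0.971% ± 0.134 of its set. The subunit VIIa set was shared out: Cox7a2 held 52.2 to 59.2%, Cox7a2l, whose protein joins complexes III and IV, 39.3 to 46.5%, and the muscle isoform Cox7a1 0.295 to 1.46%. Cox6a1 itself was 167 ± 6.82 CPM in WT and 156 ± 23.1 CPM in KO mice, and Cox6a2 2.02 ± 0.322 and 1.71 ± 0.231 CPM, with log2 fold changes of -0.10 and -0.23 and standard errors of 0.10 and 0.17.

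Complex V had 17 nuclear members, 13 higher and 4 lower in KO mice, with a median log2 fold change of 0.06. Atp5c1, the gamma subunit that turns inside the catalytic head, had the lowest unadjusted p among them, 0.183 in edgeR with an adjusted p of 1.0. It had 188, 169, 190 and 147 CPM in WT and 210, 182, 180 and 195 CPM in KO mice, with overlapping groups and a log2 fold change of 0.14 with a standard error of 0.10. Without WT mouse 4 that value was 0.07. Atp5b and Atp5a1, the subunits of the catalytic head, had 1156 ± 61.7 and 944 ± 63.6 CPM in WT and 1171 ± 59.1 and 961 ± 81.2 CPM in KO mice. A further set of 3 genes codes for the same mature c subunit of the rotor ring: Atp5g3 held 64.0 to 68.0% of their summed TPM, Atp5g1 29.6 to 34.3% and Atp5g2 1.49 to 4.36%. Their means were 65.2% ± 1.11, 32.4% ± 1.38 and 2.41% ± 1.33 in WT and 65.5% ± 1.69, 32.5% ± 1.91 and 2.06% ± 0.295 in KO mice. All 3 shares are uncertain, because Gm10175, identical to Atp5g2 over 645 bases, took 74.2 CPM where Atp5g2 took 7.25 CPM.

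In TPM, a level per length, the mitochondrial members stood well above the nuclear ones. The median of the mean levels was 11601 TPM for mitochondrial and 225 TPM for nuclear members. Among the mitochondrial genes mt-Atp8 was highest at 130516 ± 27100 TPM and mt-Nd6 lowest at 179 ± 33.3 TPM (SD, n = 8). The value of mt-Atp8 leans on its effective length, which the authors' software set to as little as 30.5 bases of the 204 in the gene. The next in order were mt-Atp6 at 37432 ± 4720, mt-Co3 at 32526 ± 3740, mt-Co2 at 22863 ± 2670, mt-Nd4l at 16039 ± 3260 and mt-Co1 at 15183 ± 1500 TPM. Mouse by mouse, mt-Atp6 was above mt-Co3 and mt-Co3 above mt-Co2 in all 8 mice. By contrast, mt-Nd4l was above mt-Co1 in some mice and below it in others.

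Most nuclear members were well expressed, with 68 of 78 at 100 TPM or more and 5 under 10 TPM. The highest and lowest were Ndufa4 at 526 and Ndufa4l2 at 4.14 TPM in complex I, Uqcrh at 576 and Uqcrfs1 at 132 TPM in complex III, Cox4i1 at 1293 and Cox4i2 at 4.97 TPM in complex IV, and Atp5b at 939 and Atp5s at 20.2 TPM in complex V. Ndufa4 was first described in complex I and its protein is now known to sit in complex IV, and Ndufa4l2 is its counterpart induced by low oxygen. The 5 under 10 TPM were Cox4i2, Cox6a2, Cox6b2, Cox7a1 and Ndufa4l2, all of them isoforms of another member. The median of nuclear members was 175 TPM in complex I, 283 in complex III, 334 in complex IV and 345 in complex V.

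**Figure D5:**
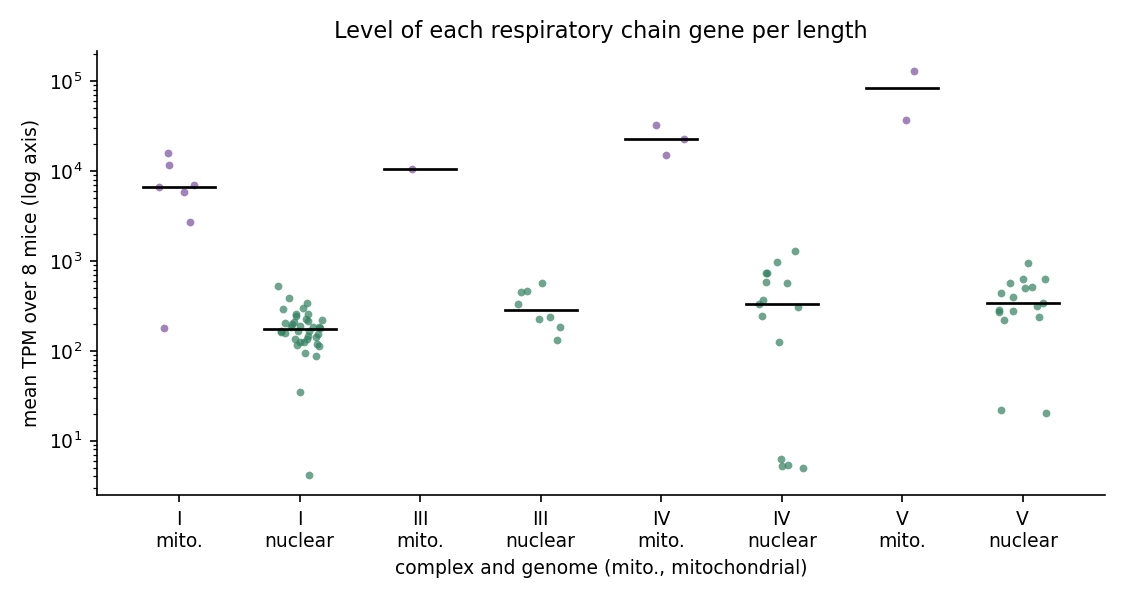
Mean TPM over 8 mice of each gene, on a log axis, by complex and genome, with black lines at the medians. Mitochondrial genes (purple) have medians from 6703 TPM in complex I to 83974 TPM in complex V, and nuclear genes (green) from 175 to 345 TPM. The purple point at 179 TPM is mt-Nd6.

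At the count minimum, Cox7a1 was the member with the fewest counts, from 11.4 in WT mouse 3 to 55.5 in WT mouse 2. Just outside stood Cox7b2, a testis isoform, with 4 to 11 counts and at least 10 in 3 mice, and Cox8b, a heart and muscle isoform, with 2 to 14 counts and at least 10 in 1 mouse. Cox8c had 0 counts in all 8 libraries, which allows at most 0.0626 CPM by counting error. A second identifier named Atp5o also had 0 counts. All 91 members passed the filter on low counts that preceded the test.

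Several members have near-identical copies, and the estimated counts divide reads between them. With at least 90% identity over at least 80% of the copy, 16 annotated nuclear copies of mitochondrial genes and 92 copies of nuclear members were found, of which 14 and 32 had counts. Gm28438, 99.7% identical to mt-Nd3 over 345 bases, took 32.7 to 56.8% of the counts of the pair. Its mean was 554 CPM and that of mt-Nd3 534 CPM, so the counts of mt-Nd3 are uncertain, and with copies added its log2 fold change went from -0.11 to 0.04. Gm10925, a copy of mt-Atp6, had 80.9, 60.7, 863 and 0.0 CPM in WT mice and 248, 588, 240 and 22.2 CPM in KO mice, at most 5.21% of its pair. Among nuclear members, Gm10175 took 83.3 to 94.1% of its pair with Atp5g2, Ndufb4c 55.9 to 67.0% with Ndufb4, and BC002163 11.6 to 30.8% with Ndufs5, so these 3 members are uncertain too. Copies took at most 9.46% of the pair with Cox7a2l, 19.4% with Ndufa12 and 14.2% with Ndufab1. With the copies counted in, the mitochondrial share was 7.68% ± 1.86 in WT and 7.82% ± 0.559 in KO mice, and the nuclear share 0.900% ± 0.0304 and 0.945% ± 0.0549. Some nuclear members also overlap a gene on the other strand, such as Ndufb2 with Braf, Ndufs1 with Eef1b2 and Atp5d with Cbarp. Without strand, reads that lie inside the shared stretch of such a pair cannot be told apart.

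Lists of genes around the chain were drawn up from general knowledge with earlier results known, and no gene of these lists had an adjusted p under 0.1 in edgeR's test. The counts of higher and lower genes in each list stand beside 49.7% of all genes tested that were higher in KO mice. These counts come from the same mice as the nuclear members and were not repeated with a mouse left out. Uqcc1, Polg and Mrpl1 had an unadjusted p under 0.05, beside 1.88% of all genes tested, and the groups did not overlap for Polg, Idh3b and Mrpl1, beside 1.53% of all genes tested. For complex II, cytochrome c and related electron carriers, 9 of 10 were higher in KO mice, with a median log2 fold change of 0.06. Cycs, which codes for cytochrome c, had 94.6 ± 10.4 CPM in WT and 103 ± 6.88 CPM in KO mice, and Cyc1, cytochrome c1 of complex III, 122 ± 2.15 and 127 ± 5.12 CPM. The complex II gene Sdha had 420 ± 7.20 CPM in WT and 434 ± 26.8 CPM in KO mice. Of 48 assembly factors 37 were higher, with a median of 0.03. Uqcc1, an assembly factor of complex III, had 46.5, 42.0, 48.1 and 41.0 CPM in WT and 46.8, 63.2, 48.6 and 56.1 CPM in KO mice, a log2 fold change of 0.27 with overlapping groups (unadjusted p = 0.0323 and adjusted p = 1.0, edgeR). Ndufaf6, which serves complex I, had 5.20 ± 0.436 and 6.22 ± 0.605 CPM.

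Among 23 genes that copy, transcribe or process mitochondrial DNA and RNA, 16 were higher and 7 lower. Polg, the catalytic subunit of the mitochondrial DNA polymerase, was lower in every KO mouse than in any WT mouse, with 52.7, 54.6, 56.4 and 58.4 CPM in WT and 48.4, 43.1, 47.1 and 51.3 CPM in KO mice. Its log2 fold change was -0.23 with a standard error of 0.07 (unadjusted p = 0.0114 and adjusted p = 1.0, edgeR). Polg2, its accessory subunit, had 1.63 ± 0.186 and 1.95 ± 0.225 CPM. Tfam, which packs and helps transcribe mitochondrial DNA, had 32.9 ± 1.09 CPM in WT and 33.7 ± 1.39 CPM in KO mice.

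Of 15 biogenesis regulators, 9 were higher and 6 lower. The factors whose motifs were searched in the promoters differed little: Nrf1 had 17.8 ± 0.842 and 16.5 ± 1.10 CPM, Gabpa 27.5 ± 2.67 and 28.0 ± 1.09 CPM, and Yy1 82.3 ± 3.93 and 76.9 ± 2.67 CPM. Pprc1, a coactivator of the PGC-1 family, had 17.5 ± 2.02 and 15.3 ± 0.736 CPM, and Ppargc1a 40.2 ± 6.45 and 42.5 ± 9.42 CPM.

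Of 17 TCA cycle genes, 12 were higher and 5 lower. Idh3b, a subunit of the NAD-dependent isocitrate dehydrogenase, had 157, 161, 152 and 157 CPM in WT and 165, 176, 170 and 175 CPM in KO mice, and its groups did not overlap (log2 fold change 0.13, unadjusted p = 0.0514 and adjusted p = 1.0, edgeR). Dlat, of the pyruvate dehydrogenase complex, had 125 ± 11.5 and 138 ± 7.56 CPM. Of 78 mitochondrial ribosomal protein genes, whose products translate the 13 mitochondrial mRNAs, 60 were higher and 18 lower, with a median of 0.04. Mrpl1, of the large ribosomal subunit, had 12.6 ± 0.474 CPM in WT and 14.6 ± 0.655 CPM in KO mice, without overlap (log2 fold change 0.22, unadjusted p = 0.0177 and adjusted p = 1.0, edgeR), and Mrpl47 had 14.5 ± 1.72 and 16.7 ± 1.09 CPM.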

How the data were processed

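Bulk RNA-seq libraries came from the periventricular area of 8 mice, 4 of each genotype, which were grouped by the genotype in the labels. The authors made FASTQ files with bcl2fastq 2.20 and quantified them with Salmon (version not given in the sources used here) against Gencode M29. They deposited estimated counts per gene without normalization, and estimated counts and TPM per transcript for each mouse, with effective lengths. How transcripts were summed to genes is not given in the sources used here. Gene names (94.8% of 54307 identifiers), transcript sums of TPM (97.4% of transcripts, at least 99.2% of reads) and copies (BLAST+ 2.17.0) came from tables and Gencode M21 of GRCm38, and promoters from RefSeq.

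Estimated counts were rounded to whole numbers, filtered with filterByExpr and tested with edgeR 4.0.16 in R 4.3.3 (TMM, quasi-likelihood test, no covariates, Benjamini-Hochberg over 17669 genes, adjusted p under 0.1). CPM are TMM-scaled, shares are percent of all estimated counts, and a standard error is the log2 fold change over the square root of F. Depth was 47887437 to 74482334 counts. On simulated counts the test found 179 of 195 genes given a log2 change of 2, and called 12 others. In the mice, Lrig1 at a log2 fold change of -3.80 was not called, so the simulated rate need not hold for a given gene in the mice. The members ran from -0.64 to 0.29, and the rate at which changes of that size are found was not simulated. The labels do not say that mice of 1 number are paired, and the correlations of same-numbered mice, -0.225 to 0.267, did not show it. Named genes were all mitochondrial members, nuclear members with the lowest p in each direction, those with groups apart, the highest and lowest in each complex, isoform sets, and the 2 lowest p of each list. Core subunits, factors whose motifs were searched and genes with copies or overlaps were named beside these. The members and lists were chosen with earlier results of these data known, and no p was computed over a list. Alternatives were other scalings, filters, DESeq2 1.42.0, sex, a replicate block, length offsets, females alone and leaving out each mouse, and, chosen after seeing the data, copies added, ribosomal RNA added and TPM outside mitochondrial members.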

Additional observations from a re-analysis of the deposited data

Results flagged for a closer look

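Within a genotype, 7 of the 104 groups of 4 mice had 1 mouse far from the others by Dixon's test at the 95% level (6.73%). Chance gives about 1 in 20 for independent groups with a normal spread, which these groups need not be. Among isoforms, Cox8b stood at 0.0508 CPM in KO mouse 2, from only 3 counts, with the nearest KO mouse at 0.117 CPM. Ndufa4l2 stood at 1.48 CPM in KO mouse 4, with the nearest at 2.05 CPM. The other 5 were nuclear copies of mitochondrial genes: Gm10925, a copy of mt-Atp6, at 863 CPM in WT mouse 3, with the nearest at 80.9 CPM, Gm28661, a copy of mt-Co2, at 72.1 CPM in WT mouse 3 (nearest 7.75 CPM) and at 128 CPM in KO mouse 2 (nearest 12.4 CPM), Gm28437, a copy of mt-Co3, at 24.3 CPM in KO mouse 2 (nearest 1.45 CPM), and Gm29216, a copy of mt-Co1, at 26.6 CPM in KO mouse 1 (nearest 0.570 CPM).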

How the results depend on the processing

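No member had an adjusted p under 0.1 in the 20 alternatives, where the lowest was 0.662, with DESeq2 and sex in the model. The number of all genes called, 1, became 2 with no filter, 0 with at least 10 counts in every mouse, 12 with DESeq2, 201 with DESeq2 and sex, 2 with sex in edgeR, 0 with the replicate block, 3 in females alone, and 0 to 3 when a mouse was left out (0 without WT mouse 1 or 4, 2 without WT mouse 3, 3 without WT mouse 2); the cause was not tested. Leaving out a mouse took the mitochondrial median from -0.15 to 0.14 and the nuclear median from 0.01 to 0.10, and the log2 ratio of the mitochondrial share from -0.09 to 0.18 and of the nuclear share from 0.05 to 0.11. Several mitochondrial log2 fold changes changed sign, none past the threshold in either direction. With library sizes alone mt-Nd1 was 0.0164, mt-Nd4 0.0172, mt-Cytb 0.0193 and mt-Nd4l 0.0282. DESeq2 with sex gave mt-Nd1 0.028, mt-Nd3 0.0304, mt-Nd4 0.0581, mt-Cytb 0.0685 and mt-Nd4l 0.109, and edgeR with sex gave 0.0309, 0.0325, 0.0611, 0.0714 and 0.112. With the replicate block mt-Nd1 was 0.0264, mt-Nd4 0.0087, mt-Cytb 0.0264 and mt-Nd4l 0.0212, and the block changed no member's call. With length offsets mt-Nd1 was 0.0006 and mt-Nd4l 0.0407, and with copies added mt-Nd3 was 0.0446. Females alone gave mt-Nd2 -0.193, mt-Atp8 -0.155, mt-Atp6 -0.199 and mt-Co3 -0.144. Leaving out a mouse gave ranges of -0.163 to 0.216 for mt-Nd1, -0.143 to 0.235 for mt-Nd2, -0.114 to 0.0447 for mt-Co1, -0.193 to 0.142 for mt-Co2, -0.0072 to 0.466 for mt-Atp8, -0.136 to 0.233 for mt-Atp6, -0.0900 to 0.242 for mt-Co3, -0.299 to 0.0536 for mt-Nd3, -0.146 to 0.131 for mt-Nd4, -0.156 to 0.161 for mt-Cytb and -0.165 to 0.123 for mt-Nd4l. mt-Nd5, mt-Nd6, Ndufb6, Cox6b2, Atp5c1, Cox4i2, Cox6a1 and Cox6a2 kept their direction in all alternatives run for them.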
